A study of Homo sapiens with 5 samples.

Results

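The granins and the enzymes that mature prohormones were followed by RNA-seq in HCT116, a human colorectal carcinoma cell line, after stable knockdown of the ETS transcription factor ELK4. The 9 genes are VGF, SCG2, SCG3, SCG5, CHGA, CHGB, PCSK1, PCSK2 and CPE, taken by symbol from the 20026 genes of the deposited files. They were selected on a list of names drawn up with their FPKM values in these same 5 samples known, so their differences between hairpins and controls are given as a description, without a test. The control group was 2 samples of cells carrying the pLKO.1 lentiviral vector. The knockdown group was 3 samples, shELK4_1, shELK4_2 and shELK4_3, of cells carrying hairpins against ELK4 in the same vector system, all after lentiviral infection and puromycin selection of cells grown in serum. The methods name 3 independent hairpins and the labels give only numbered titles, so it is assumed here that each title number is the hairpin of that number. Each hairpin is then 1 sample, and nothing in the labels says whether samples of a group came from separate infections, so the spread between samples may be technical.

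Endocrine cells and neurons keep peptide hormones in dense-core granules. Granins are acidic proteins that help to form these granules and are themselves cut into peptides. Inside the granule, the prohormone convertases encoded by PCSK1 and PCSK2 cut after pairs of basic residues, SCG5 encodes the chaperone that the PCSK2 enzyme needs, and the carboxypeptidase encoded by CPE trims the exposed basic residues. In the intestine this set marks enteroendocrine cells, and in tumors it marks neuroendocrine differentiation. Several of these genes, VGF and CHGA among them, are textbook targets of the cAMP-responsive factor CREB, which binds the cAMP response element (CRE).

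Values are FPKM, in which the fragments of a gene are divided by its length and by the mapped reads of the sample, so that levels of different genes can be compared. The sums of FPKM over all genes lay between 309139 and 319870. Read counts were not used here, so the depth behind each value is unknown. Low FPKM values fell on steps whose commonest ratio between samples placed the value of 1 fragment in the other 4 samples at 1.04 to 1.12 times that of the first control, though only 9.2% to 15.6% of the low genes lay at that ratio, so relative depth is known only roughly. The target itself, ELK4, was measured at 8.62 and 7.60 FPKM in both pLKO.1 samples and at 3.14, 2.82 and 2.44 FPKM with hairpins 1, 2 and 3. It fell by 1.26 on the log2(FPKM + 1) scale (adjusted p = 0.029 from limma, standard error 0.12), and every hairpin sample lay below both controls. The SD over tested genes of the log2 difference was 0.12 between both controls and 0.29 to 0.31 between a single hairpin sample and the control mean. No hairpin sample stood apart from the other hairpin samples by this measure.

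Of the 9 genes, 3 passed the limit for testing, which asks for 1 FPKM or more in 2 or more samples and which 10780 of all genes passed. These were CPE, VGF and SCG2. A further 3, SCG5, SCG3 and CHGB, stayed below 1 in every sample, with 0.458 as their highest value, and 3, CHGA, PCSK1 and PCSK2, were listed at 0 in all 5 samples, as were 3803 genes (19.0%) of the files. In the controls the order of levels was CPE, with a mean FPKM of 20.6 ± 1.22 (SD, n = 2), then VGF with 3.69 ± 0.0839 and SCG2 with 2.30 ± 0.394, then SCG5 with 0.263 ± 0.0169, SCG3 with 0.0618 ± 0.0434 and CHGB with 0.0104 ± 0.0147. The control values of neighbors in this order did not overlap, though the means of SCG3 and CHGB differed by less than their summed SDs. By control mean, CPE stood at percentile 86.5 of all genes, VGF at 59.8 and SCG2 at 54.1. The cells thus held transcripts of the trimming enzyme and of a pair of granins, while both granule convertases were listed at 0.

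**Figure D1:**
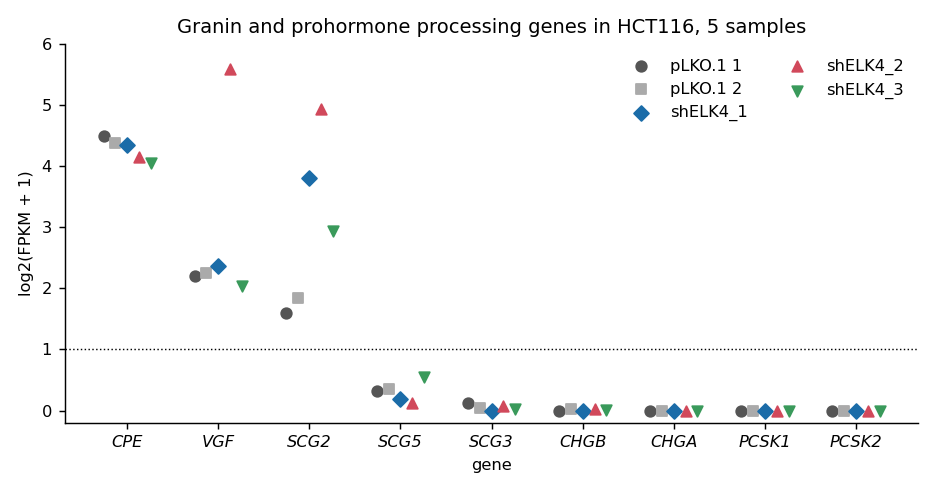
Levels of the 9 genes as log2(FPKM + 1), ordered by control mean, with 1 point for each of the 5 samples and a dotted line at an FPKM of 1. VGF stands out in shELK4_2 alone, SCG2 lies above both controls in all 3 hairpin samples, CPE varies little, and the other 6 genes stay below the line.

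VGF encodes a granin-like protein that is cut into neuropeptides active in energy balance. The controls held 3.63 and 3.75 FPKM of VGF, against 4.16 with hairpin 1, 47.0 with hairpin 2 (shELK4_2) and 3.10 with hairpin 3. A single hairpin sample was thus high, while the other two lay close to the controls, one above and one below them, and the groups overlapped. Relative to the mean of the controls, the FPKM ratio was 12.7 in shELK4_2, 1.13 in shELK4_1 and 0.840 in shELK4_3. On the log2(FPKM + 1) scale the difference was 3.36 in shELK4_2, the highest of all 10780 tested genes in that sample, against 0.14 in shELK4_1 and −0.19 in shELK4_3. The 2 controls lay 0.04 apart on this scale. The mean difference over the 3 hairpins was 1.10, with an SD of 1.96 between hairpin samples, and without shELK4_2 it was −0.03. In this bulk RNA, more cells that express VGF and more VGF RNA per cell cannot be told apart.

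SCG2 encodes secretogranin II, the precursor of secretoneurin, a peptide released by neuroendocrine cells. In FPKM, SCG2 stood at 2.02 and 2.58 in the controls, at 12.9 in shELK4_1, at 29.6 in shELK4_2 and at 6.67 in shELK4_3. All 3 hairpin samples lay above both controls, in the order shELK4_2, shELK4_1, shELK4_3. Relative to the control mean, the FPKM ratio reached 5.62 with hairpin 1, 12.9 with hairpin 2 and 2.90 with hairpin 3. On the log2(FPKM + 1) scale the differences were 2.08, 3.22 and 1.22, while the 2 controls lay 0.24 apart. Among the tested genes these differences ranked 4th in shELK4_1, 2nd in shELK4_2, after VGF, and 12th in shELK4_3, counted from the highest. By log2(FPKM + 1), SCG2 was 1 of 9 tested genes that were at least 2-fold above the controls in all 3 hairpin samples. It was 2nd of all by its smallest hairpin difference. For low genes this limit asks for more than 2-fold in FPKM. The mean difference was 2.17, with an SD of 1.0 between hairpin samples, and it was 1.65 without shELK4_2.

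The order of the hairpins in SCG2 was not the order of their ELK4 levels. The lowest ELK4 value was that of shELK4_3, where SCG2 was least raised above the controls, and ELK4 in shELK4_2, at 2.82, lay between the other two. In ELK4, hairpins 1, 2 and 3 differed from the control mean by −1.14, −1.25 and −1.40 on the log2(FPKM + 1) scale. The 2 controls lay 0.16 apart. With 1 sample for each hairpin, a relation of SCG2 to the level of ELK4 was not tested. Between hairpins, shELK4_2 exceeded shELK4_1 by an FPKM ratio of 11.3 for VGF and 2.29 for SCG2, and it exceeded shELK4_3 by 15.2 and 4.44. In shELK4_2 both genes passed CPE, so that the order of levels there was VGF, SCG2, CPE. In the other 4 samples CPE was the highest of the 9 genes.

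Counted hairpin by hairpin, 1 of the 3 tested genes was at least 2-fold above the controls in shELK4_1, against 0.566% of all tested genes in that sample. In shELK4_2 the count was 2 of 3, against 0.343% of tested genes, and in shELK4_3 it was 1 of 3, against 0.232%. Since these values chose the genes, nothing is read from the counts. Across all tested genes, 37 were at least 2-fold above the controls in shELK4_2, 17 of them in neither other hairpin sample, as for VGF. After VGF and SCG2, the 3rd highest difference in that sample was 1.49 on the log2 scale. Both genes were chosen with these values known, so their distance from the rest is only a description. Groups did not overlap for 1 of the 3 in the higher direction, SCG2, where 19.1% of tested genes were higher without overlap, and for 1 of the 3 in the lower direction, CPE, where 21.0% were lower without overlap.

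**Figure D2:**
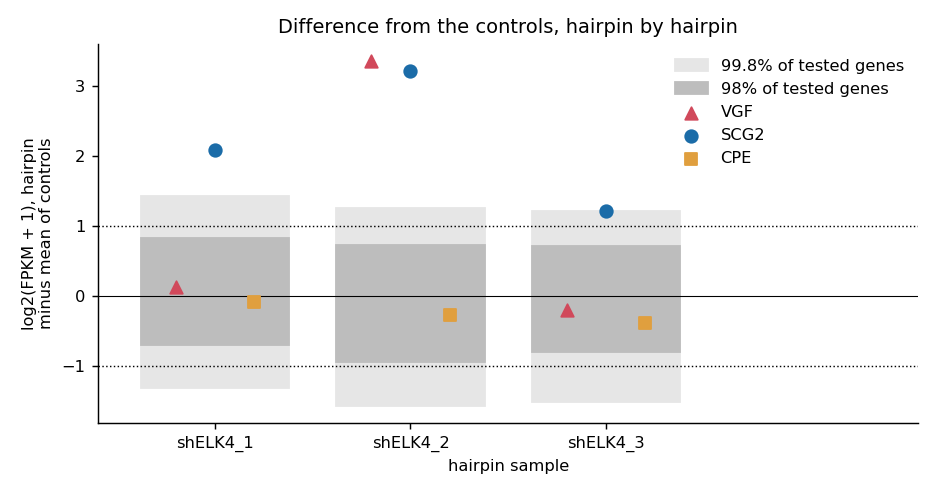
Difference of each hairpin sample from the mean of both controls on the log2(FPKM + 1) scale for VGF, SCG2 and CPE. The dark and light bands hold the middle 98% and 99.8% of the 10780 tested genes and dotted lines mark 2-fold. SCG2 lies above the light band in shELK4_1 and shELK4_2 and at its upper edge in shELK4_3, VGF lies above it in shELK4_2 only, and CPE stays inside the dark band in all 3.

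CPE encodes carboxypeptidase E, which removes basic residues from peptide ends after the convertases have cut, and which endocrine cells use for nearly all peptide hormones. CPE was at 21.4 and 19.7 FPKM in pLKO.1 cells, with 19.4 in shELK4_1, 16.9 in shELK4_2 and 15.6 in shELK4_3. All 3 hairpin samples lay below both controls, shELK4_1 by little. The knockdown mean was 17.3 ± 1.93 (SD, n = 3), 84.1% of the control mean. Hairpins 1, 2 and 3 differed from the control mean by −0.08, −0.27 and −0.37 on the log2 scale, while the controls lay 0.12 apart, so that the difference in shELK4_1 was smaller than that between the controls. In shELK4_2, where VGF and SCG2 were highest, CPE was thus slightly below the controls.

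The remaining granin and chaperone genes were low throughout. SCG5, the PCSK2 chaperone gene, was at 0.251 and 0.275 FPKM in pLKO.1 cells, with 0.145, 0.0929 and 0.458 for hairpins 1, 2 and 3. Its hairpin samples lay on both sides of the controls, and it was lowest where VGF was highest. Exons of ARHGAP11A-SCG5 and SCG5-AS1 cover 51.9% of its exonic bases, so its reads could be split with theirs. SCG3, a granin that binds granule membranes, had 0.0926 and 0.0311 in the controls and 0, 0.0526 and 0.0207 in the hairpin samples. CHGB, a classical granin of endocrine cells, had 0 and 0.0208 in the controls and 0, 0.0206 and 0.0102 in the hairpin samples. The groups overlapped for SCG3 and CHGB. CHGA, the granin most used as a neuroendocrine marker, and the convertase genes PCSK1 and PCSK2 had no value above 0 in any sample, shELK4_2 included.

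The promoter of VGF is shown beside those of CHGA and PCSK1 because all 3 hold the same CRE close to the start while only VGF had FPKM values above 0, and beside that of CPE, the highest gene of the set in the controls. RefSeq promoters of GRCh38.p14, covering 250 bases before to 50 after a start, were matched by symbol for 7 of the 9 genes in 9 entries, PCSK1 and PCSK2 having 2 starts each. SCG2 and CHGB had no entry. The lines give bases −110 to −31 before the start, 5′ to 3′ on the strand of the gene, with the CRE (TGACGTCA) in capitals. VGF lies on chr7:101165600-101165679 (minus strand), CHGA on chr14:92923040-92923119 (plus), PCSK1 (first start) on chr5:96433279-96433358 (minus) and CPE on chr4:165378898-165378977 (plus).
VGF: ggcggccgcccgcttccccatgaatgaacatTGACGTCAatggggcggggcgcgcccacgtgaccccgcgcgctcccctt
CHGA: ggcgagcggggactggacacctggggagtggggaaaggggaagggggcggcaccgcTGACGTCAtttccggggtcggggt
PCSK1: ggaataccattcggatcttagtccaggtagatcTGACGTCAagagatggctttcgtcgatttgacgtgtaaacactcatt
CPE: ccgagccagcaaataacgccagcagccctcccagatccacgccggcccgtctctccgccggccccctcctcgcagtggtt

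The CRE began at −79 in VGF, −54 in CHGA and −77 in PCSK1, and it reads the same on both strands. Among all 35116 promoter entries of this length, 1.85% held it. Letters of 4 other motifs were searched on both strands: the GC box CCCCGCCCC, which SP1 and SP3 bind, the ETS core CCGGAA, the E-box CACGTG and the CArG box of SRF. VGF held a GC box at −69, next to its CRE, and an E-box at −54, motifs found in 15.7% and 7.26% of all entries. The ETS core, found in 17.2% of entries, was present in CHGA at −45 only. None of these 9 entries held a CArG box, found in 1.29% of entries. These are matches of letters and not measured binding. The same CRE stood in the promoter of VGF, which ranged from 3.10 to 47.0 FPKM. It also stood in those of CHGA and PCSK1 (first start only), both listed at 0 throughout. Any part of the CRE in the level of VGF was not tested.

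VGF had the widest range of the tested members over the 5 samples, 3.55 on the log2(FPKM + 1) scale. The tested genes outside the set with the most similar profile were ranked by Euclidean distance between log2 profiles centered on their own means over the 5 samples. CYP1A1, a xenobiotic-metabolizing enzyme gene, was nearest at a distance of 1.60, with 3.12 and 3.44 FPKM in pLKO.1 cells, 2.15 in shELK4_1, 11.0 in shELK4_2 and 2.58 in shELK4_3. CPLX1, which encodes complexin 1, a regulator of vesicle fusion, followed at 2.06, with 4.31 and 4.80 FPKM in pLKO.1 cells, 6.54 in shELK4_1, 11.8 in shELK4_2 and 4.72 in shELK4_3. TFPI, an inhibitor of coagulation, CAV1, the coat protein of caveolae, and TM4SF19 lay at 2.10, 2.13 and 2.14. Each of these genes had its highest value in shELK4_2, but differed there from the controls by 0.93 to 1.49 on the log2 scale, against 3.36 for VGF. The shared peak follows from picking genes for likeness to VGF and is no separate result.

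**Figure D3:**
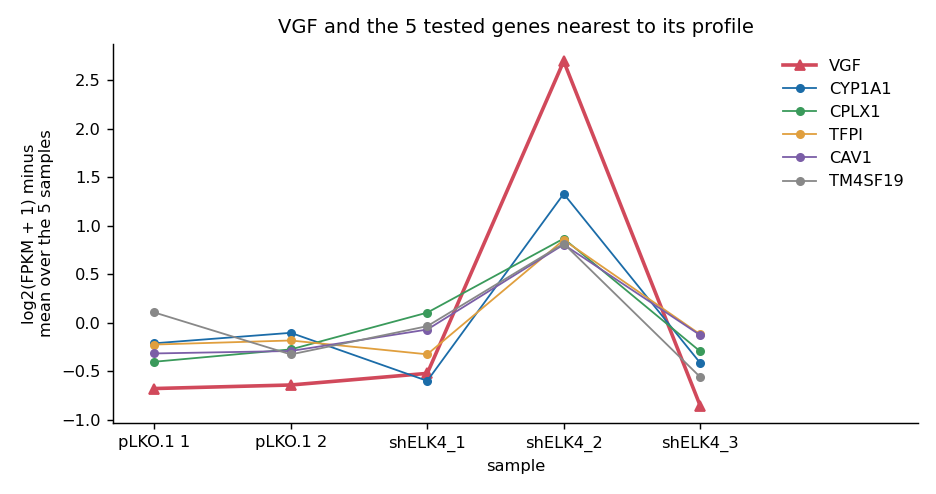
Profiles of VGF and the 5 tested genes nearest to it, as log2(FPKM + 1) minus each gene's mean over the 5 samples, with lines only joining the points of a gene. All 6 peak in shELK4_2, which follows from picking genes for likeness to VGF, and VGF lies far above the rest.

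Genes of the regulated secretory pathway, its regulators and markers of cell types were read from 9 lists of 196 different genes, of which 96 were tested. None of the 96 had an adjusted p under 0.05 from limma over all tested genes (0 genes), where 0.167% of tested genes did. At an unadjusted p under 0.05 there were 24 of the 96 (25.0%), 12 higher and 12 lower, against 16.2% of all tested genes. Without the 3 marker lists it was 20 of 85 (23.5%). The values below are therefore differences that did not pass this adjusted test. The paper's own list of differentially expressed genes gives an adjusted p under 0.05 for KRT18, as lower, and RAB26, as higher.

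Of 16 other processing genes, 11 were tested, and at an unadjusted p under 0.05 from limma 1 was higher and 1 lower, with a median log2 difference of −0.09 against −0.01 over all tested genes. FURIN, the convertase of the constitutive pathway, averaged 14.3 ± 1.23 FPKM (SD, n = 2) with pLKO.1 and 18.3 ± 0.542 (SD, n = 3) with hairpins, a log2 difference of 0.34 (adjusted p = 0.17 from limma, standard error 0.09). CTSB, a lysosomal protease gene, averaged 45.9 ± 3.47 and 29.2 ± 3.13, a difference of −0.64 (adjusted p = 0.0981 from limma, standard error 0.12). CPM and PCSK6 differed by 0.32 and −0.17, with overlapping groups, and CPM was below 1 FPKM in both controls, so that it passed the limit for testing only through shELK4_1 and shELK4_3. PAM, the enzyme that amidates peptide ends, stood at 38.1 FPKM in the controls and CPD, the carboxypeptidase of the constitutive pathway, at 14.2. FURIN, PAM, CPD and CPE were thus all measured at 14 FPKM or more in the controls, while PCSK1 and PCSK2 were listed at 0.

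Of 50 genes for granule formation and exocytosis, 32 were tested, 6 higher and 5 lower at an unadjusted p under 0.05 from limma, with a median log2 difference of −0.07. SYT1, a calcium sensor of vesicle fusion, averaged 5.67 ± 0.122 FPKM over both controls and 8.19 ± 0.228 over the 3 hairpins, a log2 difference of 0.46 (adjusted p = 0.0997 from limma). RAB26, a small GTPase of secretory granules, measured 0.832 and 1.21 FPKM with pLKO.1 against 2.52, 1.92 and 2.80 with hairpins, a difference of 0.75 (adjusted p = 0.104 from limma). BAIAP3, a relative of the UNC13 priming factors, differed by 0.47 (adjusted p = 0.134). UNC13A, a priming factor of vesicles, was lower in all 3 hairpin samples, with 5.54 and 5.44 FPKM against 3.38, 3.70 and 2.02, a difference of −0.71 (adjusted p = 0.167 from limma). RAB26 reached 1 FPKM in only 1 control and so passed the limit for testing through the hairpin samples. Groups did not overlap for these 4 genes, chosen as the largest differences of the list. In all, they did not overlap for 7 higher and 11 lower of its 32 tested genes, against 19.1% higher and 21.0% lower of all tested genes.

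Of 38 prohormone genes, the substrates of these enzymes, 8 were tested and 16 were listed at 0 in all samples. At an unadjusted p under 0.05 from limma, 2 were lower and none (0) higher, and the median log2 difference was −0.02. GAL, the precursor of galanin, measured 124 and 125 FPKM with pLKO.1 against 79.2, 86.0 and 95.9 with hairpins, a log2 difference of −0.52 (adjusted p = 0.106 from limma, standard error 0.10). GAST, the precursor of gastrin, measured 4.19 and 5.49 against 1.41, 3.03 and 1.0, a difference of −1.11 (adjusted p = 0.156 from limma, standard error 0.29). Its adjusted p from limma was 0.0405 without shELK4_2, but 0.236 without shELK4_1 and 0.201 without shELK4_3. Both peptide precursors thus lay below the controls in the samples where SCG2 lay above them. NMB, which encodes neuromedin B, had its highest value in shELK4_2, with 5.51 FPKM against 2.57 to 3.20 in the other 4 samples. NPW differed by 0.22, with overlapping groups.

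The repressor REST, which holds neuronal and granin genes silent outside the nervous system, overlapped between the groups, with 8.13 and 7.56 FPKM in pLKO.1 cells against 8.38, 6.88 and 7.78 with hairpins. Of the 14 genes of its complex and regulators, 13 were tested and 2 were higher at an unadjusted p under 0.05 from limma, with a list median of 0.06. RCOR2 was one of them (log2 difference 0.50, adjusted p = 0.102). HDAC2 and CTDSP1 differed by 0.14 and 0.17. Of the 20 genes of the cAMP and CREB pathway, 18 were tested and 2 were higher at an unadjusted p under 0.05, again with a median of 0.06. PDE4B, a phosphodiesterase that CREB induces, measured 8.60 and 7.57 FPKM with pLKO.1 against 11.6, 13.4 and 9.52 with hairpins (difference 0.45, adjusted p = 0.221 from limma). CRTC1, a CREB coactivator, was highest in shELK4_2 (2.30 FPKM against 1.23 to 1.64 elsewhere, difference 0.31), and PRKAR2B differed by 0.37. NR4A1, an early CREB target, differed by −0.34 with overlapping groups and was lowest in shELK4_2, at 2.76 FPKM. NR4A2, the other gene higher at an unadjusted p under 0.05, had 5.11 and 4.95 FPKM in the controls. With hairpins 1, 2 and 3 it had 6.45, 6.78 and 6.08 (difference 0.30, adjusted p = 0.205 from limma). Groups did not overlap for 6 higher and 0 lower of the 18, against 19.1% higher and 21.0% lower of all tested genes.

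Of 20 neuroendocrine transcription factor genes, 3 were tested and 8 were listed at 0 in all samples. SOX4, which is widely expressed and also acts in endocrine progenitors, measured 26.6 and 24.0 FPKM with pLKO.1 against 50.4, 43.6 and 40.4 with hairpins, a log2 difference of 0.79 (adjusted p = 0.0729 from limma, standard error 0.12), the smallest adjusted p of all 9 lists. HES1, a repressor of endocrine fate, had 7.66 and 7.83 in the controls but 12.1, 2.49 and 6.19 in the hairpin samples, so that it was lowest in shELK4_2. MYT1, at 0.732 and 0.995 FPKM in the controls and 1.07 to 1.47 with hairpins, passed the limit for testing only through the hairpin samples, so neither its difference of 0.26 nor the list median, which is that same value, shows a direction of the list.

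Of 14 neuroendocrine marker genes, 2 were tested, ENO2 (log2 difference 0.49, adjusted p = 0.408 from limma) and L1CAM (−0.35), both with overlapping groups, and the median was 0.07. ENO2 measured 9.80 and 9.68 FPKM in the controls against 16.2, 9.17 and 18.6 for hairpins 1, 2 and 3. L1CAM measured 3.42 and 3.75 against 3.44, 2.19 and 2.32. Both were thus lowest in shELK4_2, where VGF and SCG2 were highest. Without shELK4_2 the adjusted p of ENO2 from limma was 0.0474, but it was 0.539 without shELK4_1 and 0.551 without shELK4_3. SYP, which encodes the granule and vesicle marker synaptophysin, was below the limit for testing and is named after its values were seen, because it was high in shELK4_2, with 0.453 and 0.293 FPKM in the controls, 0.368 with hairpin 1, 2.16 with hairpin 2 and 0.742 with hairpin 3. The other cell types' markers were near 0 but for CD68 and COL1A1, the 2 of 12 that were tested (differences 0.41 and 0.18, median 0.29), and their summed FPKM was 9.44 and 10.5 in the controls and 14.0, 17.8 and 9.59 in the hairpin samples. CD68 was highest in shELK4_2, at 14.1 FPKM, and its difference was 0.13 without that sample and 0.77 without shELK4_3.

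The epithelial label of HCT116 was borne out by EPCAM, at 156 and 157 FPKM in the controls, and by keratins KRT8, KRT18 and KRT19, but not by every marker listed. Of 12 colorectal epithelial markers, 7 were tested and 4 were lower at an unadjusted p under 0.05 from limma, with a median log2 difference of −0.48. CDX1 and ASCL2 were listed at 0 in all samples, and VIL1, LGR5 and GPX2 were below the limit for testing. GPX2 had 0.0939 and 0.101 FPKM in the controls, and CDX2, which was tested, had 4.12 and 5.09. KRT18 differed by −1.10 (adjusted p = 0.117 from limma), KRT8 by −0.66, CLDN7 by −0.52 and KRT19 by −0.48. CLDN7 differed by −0.21 without shELK4_2, where it was lowest. The summed FPKM of the 12 markers was 2711 and 2755 in the controls, 2079 in shELK4_1, 1521 in shELK4_2 and 1663 in shELK4_3. Most of this sum is keratin, with KRT8, KRT18 and KRT19 at 1071, 639 and 728 FPKM in the first control. Of the tested markers, KRT8, KRT18, CLDN7, CDH1 and CDX2 were lowest in shELK4_2. EPCAM and KRT19 were instead lowest in shELK4_3, at 118 and 478 FPKM against 137 and 529 in shELK4_2. The part of this shift in the granin values was not tested.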

How the data were processed

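RNA was selected on poly(T) beads and sequenced by the authors on an Illumina HiSeq instrument. They deposited 1 file of FPKM values per sample, computed by Cufflinks and scaled to total mapped reads. The submitters' processing notes list Trimmomatic 0.36, HISAT2 2.0.5, Cufflinks 2.2.1 and HTSeq 0.9.1. Genome build, annotation and strand are not given in the sources used here, so overlapping genes are uncertain.

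From 20030 entries, 4 with repeated names were dropped. Genes reaching 1 FPKM in 2 or more samples were fitted together on log2(FPKM + 1), which understates changes of low genes, with limma 3.58.1 in R 4.3.3 (trended empirical Bayes, group as the only term, Benjamini-Hochberg adjustment over all 10780). The fit was tested on simulated data with changes larger than that of any listed gene, so smaller changes were not covered. Fold limits of 2 were applied as differences of at least 1 in log2(FPKM + 1), which is stricter than 2-fold in FPKM for low genes. Single hairpins were not tested.

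Members, lists and motifs were chosen with earlier results of these data known. Named are all members, ELK4, from each other list any gene with an adjusted p under 0.05 and the 4 largest log2 differences, and the 5 genes nearest to the member with the widest range. PAM, CPD, REST and EPCAM were added for their roles, and SYP and NR4A2 after their values were seen. A gene that the rule names from the REST list is not reported here. Exon overlap is from GENCODE v44 on GRCh38. Alternatives were a pseudocount of 0.1, no FPKM limit, median-of-ratios scaling, the replicate number as a block and leaving out each sample.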

Additional observations from a re-analysis of the deposited data

How the results depend on the processing

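With 2 controls and 1 sample per hairpin, precision rests on few samples, and without read counts no detection floor can be given for the genes listed at 0. The 4 member and hairpin pairs at least 2-fold above the controls stayed 4 with a pseudocount of 0.1, median-of-ratios scaling and either control alone, and the 6 differences of VGF and SCG2 were larger in size with a pseudocount of 0.1 (3.64 for each gene in shELK4_2). The count of genes with an adjusted p under 0.05 from limma was 18, or 13 with FC of at least 2 as well. It fell to 0 on both counts with every gene above 0 tested, and it ranged from 0 to 95, and from 0 to 34 with the FC limit, with each sample left out, the lowest without either control or without shELK4_1, and the highest without shELK4_2. Without shELK4_3 it was 1. Calls among the other listed genes were 0 to 2 with each sample left out, 2 without shELK4_2. ELK4 missed an adjusted p of 0.05 with every gene above 0 tested (−1.26, adjusted p = 0.114 from limma) and without either control, shELK4_1 or shELK4_3. With each sample left out it ranged from −1.34 to −1.18, with adjusted p from 0.0366 (without shELK4_2) to 0.452 (without pLKO.1 replicate 1). Of 31 genes named from the lists, 12 had a log2 difference that leaving out 1 sample moved by over 1.5 times. HES1 ranged from −0.80 to 0.15, the latter without shELK4_2. The causes were not tested.

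The groups share replicate numbers 1 and 2, but in the knockdown a number is taken to name a hairpin. Deviations from the group means of same-numbered samples correlated at 0.08 and 0.02. The deviations of the 2 controls mirror each other, and those of the knockdown also hold differences between hairpins. The correlations therefore cannot show whether the numbers pair the samples. With the replicate block, 22 genes passed, all 22 with FC of at least 2, and ELK4 differed by −1.19 (adjusted p = 0.049 from limma). That fit takes its differences only from the samples numbered 1 and 2. shELK4_3 has a number of its own, so its block term absorbs it, and leaving it out also gave −1.19 for ELK4.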
